A study of Mus musculus with 72 samples.

Results

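Chemokine ligands are small secreted or membrane-tethered proteins that guide white blood cells. The 33 genes described here are every gene of the count table whose name begins with Ccl, Cxcl, Cx3cl or Xcl and a number, out of 23930 genes listed. They were followed through normal lung at 4 times and through lung tumors at 3 times in mice treated with NNK, a nitrosamine from tobacco smoke that forms lung tumors in rodents. Each tumor was set beside the normal lung of its own animal.

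All 72 libraries came from Gprc5a-/- mice, so the deletion is shared by every group and there is no wild-type lung. Gprc5a is a receptor gene of the lung epithelium whose loss makes mice prone to lung tumors. Its amplicon drew 0 to 4 counts per library and none in 41 of 72 libraries. The baseline group held 10 lungs of mice aged 8 weeks that had received no NNK. Lungs taken when exposure ended came from 10 mice aged 16 weeks, those taken 3 months later from 9 mice aged 28 weeks, and those taken 7 months later from 10 mice aged 44 weeks. Needle-dissected tumors numbered 4 from 3 animals at the end of exposure, 6 from 4 animals at 3 months and 23 from 9 animals at 7 months. Animal names begin with F or M, letters that the labels do not define. Each group of normal lungs held 5 of each letter, except for 4 with M at 3 months. Tumors were less balanced, with 2 F and 2 M at the end of exposure, 5 F and 1 M at 3 months and 9 F and 14 M at 7 months. There is no unexposed lung older than 8 weeks here, so age, time and NNK cannot be told apart in the normal lungs. The 3 comparisons with baseline share the same 10 baseline lungs, and the lungs paired with tumors are also part of the later time groups. Libraries and animals are named below by the replicate number of the normal lung, and tumors by their own number within a time.

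Chemokines signal through G protein-coupled receptors and fall into classes by which receptor they engage. CXC ligands with a glutamate-leucine-arginine motif act on CXCR2 and draw neutrophils. Cxcl9 and Cxcl10 are induced by interferon gamma and draw activated T cells through CXCR3. The CC ligands mostly call monocytes, macrophage precursors, dendritic cells, eosinophils and subsets of T cells, and a homeostatic set including Cxcl12 and Cxcl13 positions cells in tissue and in lymphoid follicles.

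Several of these genes lie close together. In the RefSeq annotation of GRCm38.p6, Cxcl5, Cxcl3, Cxcl15, Cxcl1 and Cxcl2 lie in that order, and Cxcl9, Cxcl10 and Cxcl11 follow on the same chromosome. Ccl22, Cx3cl1 and Ccl17 follow each other in that order, and so do Ccl9, Ccl6, Ccl3 and Ccl4. Only the 33 genes were placed, so other genes may lie between them. Promoter sequence from RefSeq (GRCm38.p6, 250 bases before to 50 after each gene's start) was matched for 22 of the 33 genes. The kappaB letters GGAATTTCC, searched on both strands, were found in 104 of 32851 promoters (0.317%) and in those of Cxcl1, Cxcl2, Cxcl3 and Cxcl10. A second kappaB form, GGGNTTTCC, occurred in 1.68% of promoters and in those of Cxcl9, Ccl20 and Ccl9. The interferon-response letters GAAANNGAA occurred in 8.56% of promoters and in those of Cxcl9, Cxcl10, Ccl1, Ccl3 and Cxcl14. TATAAA occurred in 13.6% of promoters and in 9 of the 22. These are letter matches and not measured binding sites.

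The 5 windows below are shown because Cxcl1, Cxcl2 and Cxcl3 were higher in tumors and Cxcl9 and Cxcl10 were higher in lungs at the end of exposure. The first 4 run from 100 to 1 bases before the gene's start and the Cxcl10 window from 230 to 131 bases before it. Cxcl1 lies at chr5:90891145-90891244, Cxcl2 at chr5:90903799-90903898 and Cxcl3 at chr5:90786001-90786100, all on the plus strand of GRCm38.p6. Cxcl9 lies at chr5:92328080-92328179 and Cxcl10 at chr5:92349020-92349119, both on the minus strand, and each is written in the direction of its gene. Capitals mark the kappaB letters in the first 4 (positions -70 to -62 in Cxcl1, -96 to -88 in Cxcl2, -72 to -64 in Cxcl3 and -42 to -34 in Cxcl9) and the interferon-response letters in Cxcl10 (-213 to -205). The kappaB letters of Cxcl10, on the other strand at -158 to -150, are left in lower case.
Cxcl1: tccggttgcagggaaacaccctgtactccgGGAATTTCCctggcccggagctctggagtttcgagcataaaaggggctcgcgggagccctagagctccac
Cxcl2: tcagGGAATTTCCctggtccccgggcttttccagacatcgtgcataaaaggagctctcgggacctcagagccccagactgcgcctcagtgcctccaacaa
Cxcl3: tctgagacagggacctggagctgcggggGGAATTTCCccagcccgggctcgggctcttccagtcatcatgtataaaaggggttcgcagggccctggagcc
Cxcl9: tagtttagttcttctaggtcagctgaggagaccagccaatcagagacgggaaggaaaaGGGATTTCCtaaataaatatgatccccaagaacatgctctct
Cxcl10: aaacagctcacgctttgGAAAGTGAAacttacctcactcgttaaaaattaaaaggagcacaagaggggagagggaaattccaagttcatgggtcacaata

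Expression was read from amplicon libraries with 1 amplicon per gene, so levels compare between libraries and not between genes. Values are in CPM, the usual library-scaled unit of counts, after TMM scaling, and the tumors of an animal were pooled into 1 value. Library totals ran from 7459147 to 21822522 counts. The 33 chemokines took 0.116% to 0.255% of the counts of a baseline lung (median 0.145%) and 0.425% to 2.0% of the counts of a 7-month tumor (median 0.784%). Cxcl15 alone made up a median of 51.8% of those counts at baseline and 83.3% in 7-month tumors. Without Cxcl15 the median share was 0.147% in 7-month tumors and 0.0763% at baseline. In bulk tissue, more cells of a type and more RNA per cell cannot be told apart. The lung was checked by its epithelium: the summed alveolar type 2 markers lay at 14421 to 24935 CPM in baseline lungs and at 13096 to 284836 CPM in 7-month tumors.

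Changes are log2 fold changes ± SE from edgeR's quasi-likelihood test, with p-values adjusted over all genes tested, and a gene is called where that p was under 0.05. In the normal lungs 28 of the 33 genes had enough counts to be tested. Ccl1, Ccl4, Ccl26, Cxcl3 and Cxcl11 did not. In the tumor comparison 32 were tested and Ccl26 was not: it had no count outside 1 tumor. RefSeq lists Cxcl11 as a transcribed pseudogene, and the annotated spans of Ccl3 and Ccl4 overlap, so the split of reads between the last pair is uncertain. Cxcl1, Cxcl2 and Cxcl3, like Ccl7, Ccl8 and Ccl12, are close relatives, and the specificity of their amplicons is not given in the sources used here.

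At the end of NNK exposure 8 chemokines differed from baseline in normal lung. Of the 28 tested, 6 were higher than at baseline (Cxcl9, Ccl20, Ccl28, Cxcl10, Ccl8 and Cxcl17) and 2 were lower (Ccl24 and Cx3cl1). Over all 14907 genes 2.50% were called higher and 1.61% lower. The median log2 fold change of the 28 was 0.28, against -0.00 over all genes tested. At 3 months none of the 28 was called. By 7 months 11 were higher and 1 was lower, and of these only Ccl8 and Cx3cl1 had also been called at the end of exposure.

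**Figure D1:**
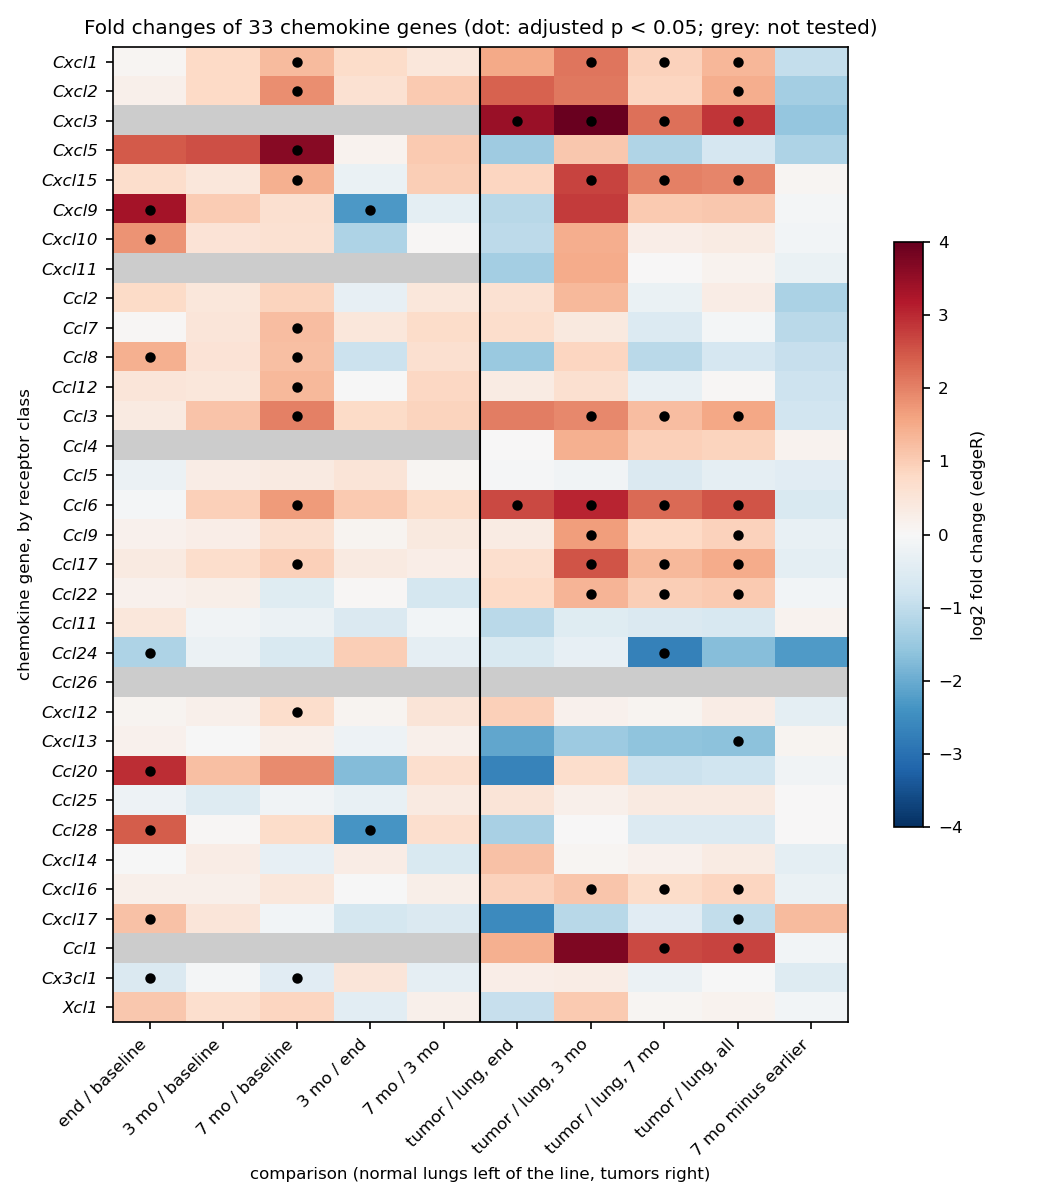
Log2 fold change (edgeR) of each of the 33 chemokine genes (rows, by receptor class) in 10 comparisons (columns), from blue for lower to red for higher in the tested group. Dots mark adjusted p under 0.05 and grey marks genes not tested: Cxcl9 stands out at the end of exposure, Cxcl5, Ccl3 and Cxcl2 in 7-month lungs, and Ccl6, Cxcl3 and Cxcl15 in tumors.

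Cxcl9 changed most. Its lowest, median and highest values were 2.11, 10.2 and 66.8 CPM in end-of-exposure lungs and 0.261, 1.53 and 3.99 CPM in baseline lungs. Lungs 4 and 10 were the high ones at 66.8 and 48.0 CPM, and 3 of the 10 lungs lay within the baseline range. Cxcl9 rose by 3.32 ± 0.54 (edgeR adjusted p = 0.000108), and the rise held when any single library was left out (2.78 to 3.53). Cxcl10 lay at 1.96, 5.35 and 26.0 CPM at the end of exposure against 0.939, 1.83 and 4.68 CPM at baseline, with the same pair of lungs highest. It rose by 1.80 ± 0.45 (edgeR adjusted p = 0.0123), but without lung 4 the change was 1.38 with an adjusted p of 0.0591. Cxcl11, the third ligand of CXCR3, had a median of 0.348 CPM at the end of exposure and 0.174 CPM at baseline and was too low to test.

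The mucosal ligands of that time rested largely on one animal. Ccl20, which draws CCR6-bearing lymphocytes and dendritic cells, reached 156 CPM in lung 4 at the end of exposure and 32.8 CPM in lung 10. The group's median was 4.73 CPM, against 2.51 CPM at baseline, where no lung passed 7.36 CPM. Ccl20 rose by 2.95 ± 0.68 (edgeR adjusted p = 0.00771), and by 1.45 without lung 4 (adjusted p = 0.125). At the later times it was not called, though its medians were higher, 8.01 CPM at 3 months and 9.40 CPM at 7 months. Above the highest baseline lung lay 3 of 10 lungs at the end of exposure, 5 of 9 at 3 months and 7 of 10 at 7 months. Ccl28, a ligand of CCR10 and CCR3 made by mucosal epithelium, ran from 0.279 to 28.5 CPM with a median of 2.64 CPM at the end of exposure and from 0.38 to 3.02 CPM with a median of 0.798 CPM at baseline. Its change was 2.41 ± 0.55 (edgeR adjusted p = 0.00617) and 1.44 without lung 4 (adjusted p = 0.0707). Ccl8, a monocyte attractant, lay at 8.70, 25.1 and 112 CPM at the end of exposure and at 6.80, 12.2 and 29.1 CPM at baseline. It rose by 1.43 ± 0.38 (edgeR adjusted p = 0.0232), with an adjusted p of 0.0605 without lung 4, 0.0924 without lung 10 and 0.101 without the 5 lungs that held over 300 CPM of Myh6, a heart muscle gene. Limma-voom called 2 of the 6, Cxcl9 and Cxcl17.

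Lung 4 also stood apart in markers of immune cells. Its summed lymphoid follicle markers came to 425 CPM against a group median of 39.6 CPM, its T and NK cell markers to 440 CPM against 132 CPM, its B and plasma cell markers to 759 CPM against 203 CPM and its neutrophil markers to 697 CPM against 151 CPM. The part of these cells in the Cxcl9, Ccl20 and Ccl28 values was not tested. Over the whole group, 0 of 13 T and NK cell markers and 1 of 9 neutrophil markers were called higher than at baseline.

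Cxcl17, a chemokine-like protein of mucosal epithelium, did not depend on that lung. It lay at 235, 536 and 807 CPM at the end of exposure and at 133, 238 and 402 CPM at baseline, and rose by 1.18 ± 0.29 (edgeR adjusted p = 0.0118). The rise was between 1.11 and 1.29 with any single library left out. Of the 2 that fell, Cx3cl1 encodes fractalkine, which is tethered to the cell surface. It lay at 33.4, 49.1 and 72.2 CPM at the end of exposure and at 49.0, 68.3 and 97.0 CPM at baseline and fell by 0.57 ± 0.13 on the log2 scale (edgeR adjusted p = 0.00794). Without the Myh6 lungs the change in Cx3cl1 was -0.50 with an adjusted p of 0.0609. Ccl24, an eosinophil attractant, lay at 0.0574, 0.472 and 1.25 CPM at the end of exposure and 0.619, 1.24 and 1.97 CPM at baseline. It fell by 1.24 ± 0.36 (edgeR adjusted p = 0.0399), a call that 14 of 39 fits with a single library left out did not keep and that ended without the Myh6 lungs (-0.86, adjusted p = 0.309) and with total counts in place of TMM (adjusted p = 0.0546).

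**Figure D2:**
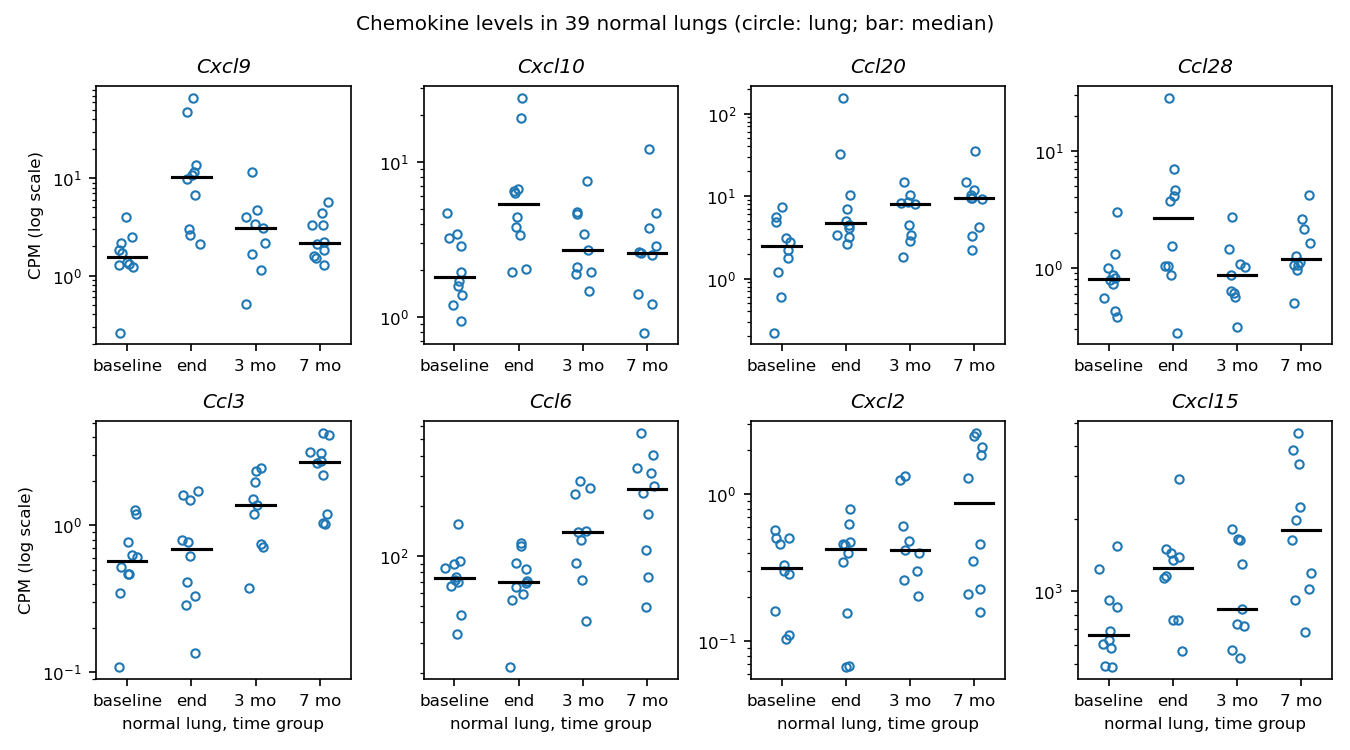
CPM on a log axis of 8 chemokines in each of 39 normal lungs (circles) by time group, with group medians as bars. Cxcl9, Cxcl10 and Ccl28 peak at the end of exposure, with lungs at 66.8, 26.0 and 28.5 CPM, while the medians of Ccl3 and Ccl6 are highest at 7 months (2.72 and 252 CPM).

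At 3 months after exposure no chemokine differed from baseline by the test, and Cxcl9 and Ccl28 were lower than at the end of exposure. In 3-month lungs Cxcl9 lay at 0.510, 3.11 and 11.5 CPM and Ccl28 at 0.312, 0.867 and 2.70 CPM. Against the end of exposure Cxcl9 fell by 2.30 ± 0.54 (edgeR adjusted p = 0.0232), and Ccl28 fell by 2.36 ± 0.57 (edgeR adjusted p = 0.0305). No chemokine was called higher in that comparison (3 at an unadjusted p under 0.05, 1 by DESeq2 and 1 by limma-voom). Over all genes 0.342% were called higher and 0.671% lower. Without end-of-exposure lung 4 the change was -1.76 for Cxcl9 (adjusted p = 0.0871) and -1.38 for Ccl28 (adjusted p = 0.18), and 2 other single lungs for Cxcl9 and 4 for Ccl28 also ended the call. Neither was called by limma-voom (adjusted p = 0.0603 and 0.196) or when only these groups were fitted (adjusted p = 0.111 and 0.105). Against baseline edgeR called 0 of 28 at 3 months, where 1.09% of all genes were higher and 0.637% lower. At an unadjusted p under 0.05 there were 4 (Cxcl5, Ccl3, Ccl6 and Ccl17, all positive), DESeq2 called 1 higher and limma-voom none.

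By 7 months the neutrophil-attracting and monocyte-attracting ligands were higher in normal lung than at baseline. Cxcl1, Cxcl2, Cxcl5 and Cxcl15, the 4 tested ligands of the neutrophil class, all rose, as did Ccl7, Ccl8 and Ccl12 of the 4 monocyte attractants, Ccl3, Ccl6, Ccl17 and Cxcl12. Cx3cl1 fell. Among all genes tested 7.52% were higher and 5.31% lower, and the median change was 0.72 over the 28 chemokines and 0.02 over all genes.

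Cxcl15, known in mice as lungkine and made by lung epithelium, was the most counted of the 33 in every group. In 7-month lungs it lay at 677, 1796 and 4546 CPM, against 485, 659 and 1542 CPM at baseline. It rose by 1.43 ± 0.32 (edgeR adjusted p = 0.00264). At 7 months the 5 lungs of animals named with F held 677 to 1625 CPM and the 5 named with M 1967 to 4546 CPM. A difference between the letters was not tested. Cxcl2 lay at 0.159, 0.873 and 2.63 CPM at 7 months and 0.104, 0.318 and 0.569 CPM at baseline. Its rise of 1.84 ± 0.47 (edgeR adjusted p = 0.00818) came from 5 lungs above 1.2 CPM, while the other 5 lay within the baseline range. Cxcl1 lay at 1.84, 3.48 and 8.66 CPM against 0.731, 1.69 and 2.98 CPM and rose by 1.25 ± 0.41 (edgeR adjusted p = 0.0373). That call was lost in 6 of 39 fits that left out a single library and with total counts in place of TMM (adjusted p = 0.0562).

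Cxcl5, which epithelial cells secrete, differed most between animals. In 7-month lungs its median was 1.82 CPM, but lungs 10, 9 and 6 held 53.7, 23.8 and 12.9 CPM, and the lowest lung 0.597 CPM. Those high lungs were all of animals named with M. The 7-month lungs named with M ran from 1.27 to 53.7 CPM and those named with F from 0.597 to 2.28 CPM. In 3-month lungs the ranges were 2.43 to 28.1 CPM with M and 0.510 to 2.27 CPM with F. A difference between the letters was not tested. Baseline lungs ran from 0.127 to 1.66 CPM with a median of 0.848 CPM. The median was higher at the end of exposure (2.36 CPM) and at 3 months (2.27 CPM) than at 7 months, though Cxcl5 was not called then. At the end of exposure 7 of 10 lungs lay above the highest baseline lung. At 3 months 5 of 9 did so, and at 7 months 5 of 10. The 7-month rise of 3.64 ± 0.85 (edgeR adjusted p = 0.0042) held in each fit without 1 library (2.77 to 3.84) but not in limma-voom, which works on log values (2.32, adjusted p = 0.0655). Cxcl3, too low to test in lungs, was highest at 7 months in lungs 10, 9 and 6, at 2.01, 1.76 and 1.70 CPM.

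Among the CC ligands, Ccl3, a macrophage inflammatory protein, had the smallest p. It lay at 1.03, 2.72 and 4.29 CPM at 7 months and 0.108, 0.568 and 1.27 CPM at baseline. The rise was 2.02 ± 0.39 (edgeR adjusted p = 0.000705), subject to the overlap with Ccl4. Ccl6, a mouse macrophage chemokine, lay at 49.4, 252 and 550 CPM against 34.1, 73.6 and 156 CPM and rose by 1.69 ± 0.35 (edgeR adjusted p = 0.00119). Its medians over the 4 times were 73.6, 70.3, 140 and 252 CPM. Ccl12 lay at 1.86, 7.06 and 14.8 CPM against 1.03, 2.66 and 7.79 CPM at baseline and rose by 1.3 ± 0.38 (edgeR adjusted p = 0.0209). Ccl7 lay at 0.477, 1.38 and 4.06 CPM against 0.209, 0.650 and 1.28 CPM at baseline and rose by 1.23 ± 0.35 (edgeR adjusted p = 0.0167). Both attract monocytes through CCR2.

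Ccl8, Ccl17 and Cxcl12 moved less and were less stable. Ccl8 lay at 11.8, 29.2 and 78.9 CPM at 7 months and rose by 1.21 ± 0.38 (edgeR adjusted p = 0.0309). Ccl17, which draws CCR4-bearing T cells, lay at 6.84, 16.1 and 42.9 CPM against 6.78, 8.94 and 14.9 CPM at baseline and rose by 0.95 ± 0.27 (edgeR adjusted p = 0.0154). Cxcl12, the ligand of CXCR4, lay at 17.4, 35.1 and 70.8 CPM against 12.4, 22 and 35.9 CPM at baseline and rose by 0.71 ± 0.22 (edgeR adjusted p = 0.0299). Of these, Ccl8 lost its call in 6 fits, Cxcl12 in 5 and Ccl17 in 1 when a single library was left out. Without the Myh6 lungs the adjusted p was 0.117 for Ccl8 and 0.0746 for Ccl17. Cxcl12 was not called by limma-voom (adjusted p = 0.0628) or with total counts in place of TMM (adjusted p = 0.0733). Ccl2, the best known monocyte attractant, lay at 2.19, 3.64 and 10.8 CPM at 7 months and 0.835, 2.45 and 4.77 CPM at baseline. It had a change of 0.89 ± 0.36 and was not called (edgeR adjusted p = 0.0927).

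Cx3cl1 was lower than at baseline again at 7 months, after a median of 66.0 CPM at 3 months. It lay at 38.9, 49.5 and 67.1 CPM at 7 months against 49.0, 68.3 and 97.0 CPM at baseline and fell by 0.46 ± 0.13 on the log2 scale (edgeR adjusted p = 0.0194), with an adjusted p of 0.0505 without the Myh6 lungs. No chemokine was called between 7 and 3 months, where 0.0335% of all genes were higher and 0.0201% lower. At an unadjusted p under 0.05, 7 of the 28 were higher and 2 lower, and neither DESeq2 nor limma-voom called any.

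The receptors of these ligands were measured in the same lungs. Of 16 signalling receptors tested, 2 were higher at the end of exposure, 0 at 3 months and 5 at 7 months, all against baseline, and none was lower. Cxcr3, the receptor of Cxcl9 and Cxcl10, rose by 1.10 ± 0.26 at the end of exposure (edgeR adjusted p = 0.0075) and Cxcr6, the receptor of Cxcl16, by 1.04 ± 0.29 (edgeR adjusted p = 0.0327). In those lungs the summed signalling receptors had a median of 127 CPM and were highest in lung 4, at 384 CPM. How far these 2 calls rest on lung 4 was not tested. At 7 months Cxcr3 lay at 3.32, 10.2 and 15.3 CPM against 2.10, 3.32 and 4.85 CPM at baseline, a rise of 1.55 ± 0.26 (edgeR adjusted p = 0.000119). Cxcr6 rose by 1.61 ± 0.30 (edgeR adjusted p = 0.000359). The neutrophil receptors Cxcr1 and Cxcr2 rose by 2.85 ± 0.54 (edgeR adjusted p = 0.000572) and 1.74 ± 0.44 (edgeR adjusted p = 0.00744), and Ccr1 was also higher. None of the 4 atypical receptors tested, which bind chemokines without G protein signalling, was called in the normal lungs.

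Cytokines known to induce chemokines were listed too, and 3 of the 5 tested were higher at 7 months. Il1b lay at 7.07, 27.4 and 58.8 CPM against 4.64, 9.37 and 17.7 CPM at baseline and rose by 1.58 ± 0.32 (edgeR adjusted p = 0.00101). Il33, an epithelial alarmin, rose by 2.15 ± 0.52 (edgeR adjusted p = 0.00537) and Il1a by 1.36 ± 0.35 (edgeR adjusted p = 0.00961). The sum of the 10 listed cytokines had a median of 86.6 CPM in 7-month lungs and reached 480 CPM in lung 3. Whether the cytokine calls hold with that lung left out was not tested. Ifng was not called at any time, with a change of 0.51 at the end of exposure (edgeR adjusted p = 0.618). Of 9 neutrophil markers, 8 were also higher at 7 months than at baseline. Their sum lay at 98.3, 167 and 477 CPM at 7 months and at 36.4, 71.7 and 197 CPM at baseline. Its median was already 151 CPM at the end of exposure and 147 CPM at 3 months. The summed macrophage markers lay at 2199, 9535 and 32150 CPM at 7 months and 2086, 5619 and 8343 CPM at baseline, with 4 of 11 called higher. The part of these cells in the chemokine values was not tested.

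Averaged over the 16 animals, 11 of 32 chemokines were higher in tumors than in the same animal's lung: Ccl6, Cxcl3, Cxcl15, Cxcl16, Ccl17, Ccl22, Cxcl1, Ccl3, Ccl9, Ccl1 and Cxcl2. Cxcl13 and Cxcl17 were lower. Tumors differed from lung at a large share of all genes, 24.3% higher and 25.4% lower, so a count of this size is not in itself particular to chemokines. Their median change was 0.31, against -0.01 over all genes. By time, 2 were higher at the end of exposure and none was lower (2 at an unadjusted p under 0.05, 2 by DESeq2, none by limma-voom), with 1.97% and 2.65% of all genes. At 3 months 9 were higher and none was lower (none at an unadjusted p under 0.05 or by either other tool), with 9.53% and 10.2% of all genes. At 7 months 9 were higher and 1 was lower, with 18% and 19.8% of all genes.

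The tumor values depend on the scaling. With total counts in place of TMM, the median gene shifted by -0.37 at 3 months, -0.24 at 7 months and -0.24 on average. The share of all called genes that were higher was then 19.7%, 24.8% and 26.9%, against 48.3%, 47.7% and 48.9% with TMM, and at the end of exposure 30.7% against 42.6%. No called chemokine changed sign under that scaling, but Ccl3, Ccl9, Ccl22 and Cxcl16 lost their call at 3 months and Ccl1, Ccl3 and Cxcl1 at 7 months. The values below are those with TMM.

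Ccl6 was higher in the tumors of 16 of 16 animals. At the end of exposure tumors of the 3 animals held 151, 684 and 783 CPM, against 119, 71.3 and 54.4 CPM in their own lungs. At 3 months tumors held 1064, 1344, 1250 and 1194 CPM, against 234, 255, 125 and 71.5 CPM in the lungs of the same animals in the same order. At 7 months tumors lay at 529, 912 and 2160 CPM and the paired lungs at 49.4, 263 and 550 CPM. The groups did not overlap at the first 2 times. The average change was 2.53 ± 0.26 (edgeR adjusted p = 1.95e-06), and 2.64 ± 0.65, 3.05 ± 0.53 and 2.26 ± 0.34 at the end of exposure, 3 months and 7 months (edgeR adjusted p = 0.0363, 0.00182 and 0.000147). With 3 animals the first of these lost its call without animal 9 (2.15, adjusted p = 0.191) or animal 10 (1.89, adjusted p = 0.301).

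Cxcl3, a neutrophil attractant barely counted in lung, was also higher in tumors of all 16 animals. Tumor values were 0.526, 1.80 and 0.397 CPM at the end of exposure, against 0.129, 0 and 0.0697 CPM in the lungs of the same animals. At 3 months they were 4.85, 0.656, 5.32 and 9.13 CPM, against 0.301, 0.153, 0.156 and 0.534 CPM. At 7 months tumors lay at 0.422, 1.58 and 6.82 CPM and paired lungs at 0, 0.318 and 2.01 CPM. Tumors stood above every paired lung at the first 2 times and overlapped with the highest lungs at 7 months. The average rise was 2.87 ± 0.32 (edgeR adjusted p = 3.82e-06). At the end of exposure it was 3.46 ± 0.89 (edgeR adjusted p = 0.0396), a call lost without any 1 of the 3 animals (2.22 to 4.61, adjusted p up to 0.232) and with no animal block (0.088). At 3 months it was 3.95 ± 0.65 and at 7 months 2.20 ± 0.40 (edgeR adjusted p = 0.00136 and 0.000619).

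The related Cxcl1 and Cxcl2 moved less. Cxcl1 held 1.3, 2.29 and 3.06 CPM in tumors at the end of exposure, against 0.707, 0.532 and 1.12 CPM in their own lungs. At 7 months its tumors lay at 3.61, 5.16 and 22.9 CPM and the paired lungs at 2.46, 3.67 and 8.66 CPM. Cxcl2 lay at 0.459, 1.77 and 5.47 CPM in 7-month tumors and at 0.159, 1.29 and 2.63 CPM in paired lungs. Cxcl1 rose on average by 1.34 ± 0.25 (edgeR adjusted p = 0.000258, higher in 14 of 16) and Cxcl2 by 1.45 ± 0.40 (edgeR adjusted p = 0.00653, higher in 11 of 16). At 3 months animal 1 held 25.8 CPM of Cxcl1 in its tumor and the other 3 held 4.32 to 4.98 CPM, and without animal 1 the change was 1.64 (adjusted p = 0.0617). The 7-month call on Cxcl1 (0.93 ± 0.33, edgeR adjusted p = 0.0323) was lost in 4 of 16 fits that left out 1 animal. Cxcl2 was called at no single time.

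Cxcl15 was higher in the tumors of 14 of 16 animals. Tumors held 1103, 5372 and 1034 CPM at the end of exposure, against 1153, 762 and 1135 CPM in the lungs of the same animals, so animal 9 alone had more in its tumor. At 3 months they held 3975, 4362, 5524 and 7888 CPM, against 571, 718, 733 and 1651 CPM. At 7 months tumors lay at 1445, 8454 and 14326 CPM and paired lungs at 677, 1625 and 4546 CPM. The change was 2.70 ± 0.45 at 3 months and 2.0 ± 0.30 at 7 months (edgeR adjusted p = 0.0015 and 0.000136), higher in 13 of 13 animals of those times. Cxcl5, another epithelial member of the class, was not called in tumors, and animal 10 at 7 months held 84.8 CPM in its tumors and 53.7 CPM in its lung.

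Neutrophil markers did not rise as a group beside these ligands. The summed neutrophil markers lay at 46.8, 75.0 and 434 CPM in 7-month tumors and at 98.3, 167 and 460 CPM in the paired lungs. On average 5 of 10 neutrophil markers were lower and 1 was higher. Alveolar type 2 markers were higher for 8 of 10 on average and lower for 1, and their sum lay at 34243, 98197 and 191345 CPM in 7-month tumors against 14606, 23665 and 63448 CPM in paired lungs. Macrophage markers were higher for 9 of 12, with sums of 10132, 32655 and 59586 CPM in tumors and 2199, 9371 and 32150 CPM in paired lungs. The part of these cells in the tumor values of Cxcl15, Ccl6 and the other ligands was not tested.

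**Figure D3:**
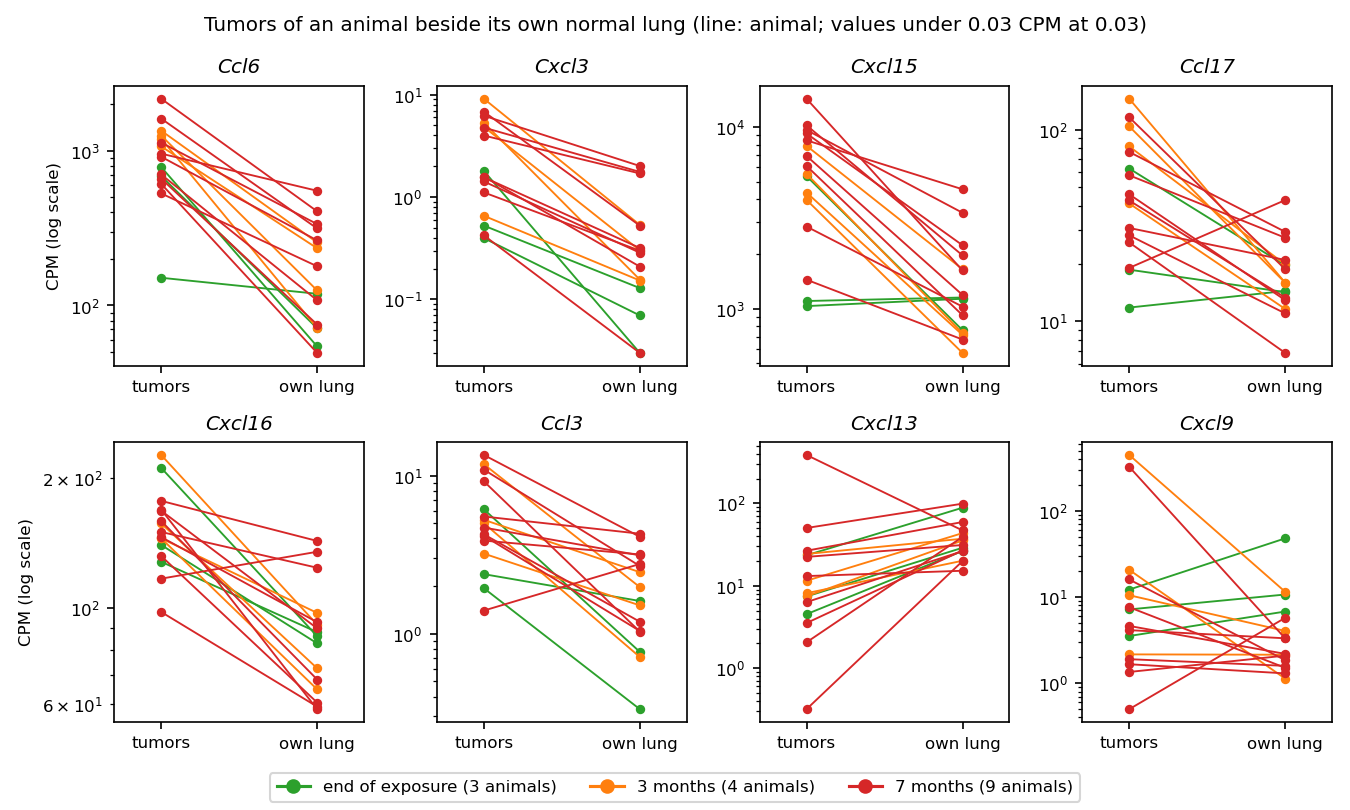
CPM on a log axis of 8 chemokines in the tumors of each animal (left, pooled per animal) and in its own normal lung (right), joined by a line and colored by time. Ccl6 and Cxcl3 are higher in tumors of 16 of 16 animals, Cxcl13 in 1 of 16, and Cxcl9 reaches 446 and 325 CPM in a pair of animals.

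Ccl17 and Ccl22, both ligands of CCR4 on helper and regulatory T cells, were both higher in tumors. At 3 months Ccl17 held 145, 81.8, 104 and 41.2 CPM in tumors, against 15.9, 19.8, 15.9 and 11.6 CPM in the lungs of the same animals, with no overlap. At 7 months it lay at 19, 42.7 and 116 CPM in tumors and at 6.84, 18.7 and 42.9 CPM in paired lungs. The change was 2.50 ± 0.46 at 3 months and 1.31 ± 0.31 at 7 months (edgeR adjusted p = 0.00245 and 0.0032), and the average was 1.49 ± 0.23 (edgeR adjusted p = 5.37e-05). Ccl22 held 64.7, 48.1, 163 and 74.6 CPM in 3-month tumors, against 32.0, 28.8, 43.6 and 26.0 CPM in their own lungs. At 7 months Ccl22 lay at 15.7, 33.7 and 81.2 CPM in tumors and at 6.89, 19.5 and 45.8 CPM in paired lungs. Its change there was 0.995 (edgeR adjusted p = 0.00529). Over all normal lungs its median was 16.8 CPM at 7 months and 25.5 CPM at baseline, a difference that was not called. In tumors Ccl22 rose on average by 1.05 ± 0.19 (edgeR adjusted p = 0.000207), and each of the pair was higher in 14 of 16 animals. At 3 months the call on Ccl22 was lost without animal 1, 3 or 8, with an adjusted p of up to 0.12, and it was 0.0544 with no animal block. Ccr4, their receptor, had an average change of 0.82 and was not called (edgeR adjusted p = 0.0517). Cx3cl1, which lies between this pair of genes, was not called in any tumor comparison: its average change was near 0, with 9 of 16 animals higher in tumors.

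Cxcl16, a transmembrane ligand of CXCR6 made by macrophages and epithelium, moved by less than the others and in nearly every animal. At 3 months tumors held 157, 145, 226 and 145 CPM against 72.6, 97.5, 91.6 and 64.9 CPM in their own lungs. At 7 months tumors lay at 98.0, 150 and 177 CPM and paired lungs at 58.4, 89.8 and 143 CPM. The average rise was 0.87 ± 0.12 (edgeR adjusted p = 2.79e-05), in 15 of 16 animals. The 3-month call had an adjusted p of 0.0573 without animal 3.

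Ccl3 and Ccl9 were higher too. Ccl3 held 3.21, 5.25, 11.8 and 5.0 CPM in 3-month tumors, against 1.51, 2.45, 1.97 and 0.712 CPM in the lungs of the same animals. At 7 months it lay at 1.40, 4.69 and 13.5 CPM in tumors and 1.03, 2.76 and 4.29 CPM in paired lungs. Ccl9, a close relative of Ccl6, held 117, 169, 147 and 32.8 CPM in 3-month tumors, against 49.3, 50.4, 16.3 and 24.6 CPM in their own lungs. Ccl3 rose by 1.56 ± 0.29 on average (edgeR adjusted p = 0.000313), also in 15 of 16, and Ccl9 by 0.93 ± 0.24 (edgeR adjusted p = 0.00372) in 13 of 16. At 3 months Ccl3 and Ccl9 each lost their call without any of 3 of the 4 animals (adjusted p up to 0.144 and 0.151). Ccl1, a ligand of CCR8 made by activated T cells, lay at 0, 0.572 and 6.59 CPM in 7-month tumors and at 0, 0.0953 and 0.836 CPM in paired lungs. It rose by 2.69 ± 0.71 on average (edgeR adjusted p = 0.00474). It was at 0 in the lungs of 4 of the 9 animals paired with 7-month tumors, and its 7-month call was lost in 10 of 16 fits that left out 1 animal. Without animal 4 the 7-month change was 2.14 (adjusted p = 0.112), against 2.65 ± 0.98 with it (edgeR adjusted p = 0.0435).

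Cxcl13, which draws B cells into follicles, was lower in tumors of 15 of 16 animals. Tumors held 4.52, 7.41 and 23.4 CPM at the end of exposure, against 26.4, 28.9 and 88.4 CPM in the lungs of the same animals. At 3 months they held 11.5, 24.3, 7.46 and 8.12 CPM, against 43.5, 37.2, 35.4 and 20.1 CPM. At 7 months tumors lay at 0.318, 13.1 and 386 CPM and paired lungs at 15.2, 31.2 and 99.0 CPM. The single exception was animal 4, with 386 CPM in tumors and 46.9 CPM in lung. Cxcl13 was called at no single time but fell by 1.65 ± 0.46 on average (edgeR adjusted p = 0.0069). With no animal block the change was -0.44 (adjusted p = 0.537). Cxcl17, which had risen in lungs at the end of exposure, fell by 1.0 ± 0.35 in tumors on average (edgeR adjusted p = 0.027). Like Cxcl13, it was called in tumors at no single time. At the end of exposure its tumors held 22.8, 202 and 56.6 CPM, against 235, 285 and 736 CPM in their own lungs. At 7 months tumors lay at 50.4, 153 and 423 CPM and paired lungs at 87.6, 218 and 425 CPM, with wide overlap. The call was lost without animal 2 or 10 of the end of exposure (adjusted p = 0.0779 and 0.0798), without animal 1 of 3 months (0.0513) and with no animal block (-0.71, 0.0726). Markers of airway cells were lower with them: 8 of 8 club and secretory airway markers and 7 of 7 ciliated cell markers fell on average, and their part was not tested.

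Ccl24 lay at 0 to 0.235 CPM in the 7-month tumors of 8 animals and at 13.6 CPM in those of animal 1. Paired lungs held 0.161 to 1.59 CPM. It fell by 2.70 ± 1.04 on the log2 scale (edgeR adjusted p = 0.0488), a call lost in 11 of 16 fits without 1 animal. With no animal block the value was 0.92 and not called (adjusted p = 0.506), and limma-voom gave -0.66 (adjusted p = 0.658).

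The interferon-induced ligands were not called in tumors. Cxcl9 held 10.5, 2.16, 446 and 20.7 CPM in 3-month tumors, against 4.04, 2.14, 11.5 and 1.13 CPM in the lungs of the same animals. Its average change was 1.09 ± 0.58 (edgeR adjusted p = 0.136), with 11 of 16 animals higher. At the end of exposure the tumor values were 3.53, 7.18 and 12.2 CPM against 6.79, 10.7 and 48.0 CPM in paired lungs, lowest to highest, and the change of -1.10 ± 1.17 was not called (edgeR adjusted p = 0.662). Members not called in any comparison were Ccl2, Ccl4, Ccl5, Ccl11, Ccl25, Cxcl11, Cxcl14 and Xcl1, besides the untested Ccl26. Ccl5, an attractant of T cells, lay at 7.47, 26.7 and 91.8 CPM in 7-month lungs and 10.6, 21.1 and 54.5 CPM at baseline. Ccl2 lay at 5.93, 7.55 and 10.5 CPM in 3-month tumors and at 2.86, 3.05 and 4.34 CPM in paired lungs, and its change of 1.29 ± 0.53 was not called (edgeR adjusted p = 0.087). Cxcl14 held 161, 94.1 and 169 CPM in tumors of the 3 animals at the end of exposure, against 65.8, 69.4 and 55.8 CPM in their lungs. Its change there was 1.18 ± 0.49 (edgeR adjusted p = 0.157). Ccl11, an eotaxin, Ccl25, a ligand of CCR9, and Xcl1 had medians of 3.07, 3.16 and 0.753 CPM in 7-month tumors and of 4.55, 2.51 and 0.556 CPM in paired lungs. Ccl4 reached at most 3.15 CPM in a single tumor, 1.47 CPM in an animal's pooled tumors and 0.723 CPM in lungs.

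No difference between the tumor change at 7 months and at the earlier times passed the test: 0 of 32 chemokines and 0 of 15457 genes were called, 0% in either direction. Ccl2, Cx3cl1 and Cxcl3 had an unadjusted p under 0.05, all lower at 7 months, and DESeq2 and limma-voom called no chemokine. Some receptors were called in tumors too, in a comparison where 24.3% of all genes were higher and 25.4% lower, and no count over the signalling receptors is given here. On average Cxcr1 rose by 1.75 ± 0.40 (edgeR adjusted p = 0.00151), Xcr1 by 0.96 ± 0.22 (edgeR adjusted p = 0.0014), Ccr1 by 0.84 ± 0.24 (edgeR adjusted p = 0.00707) and Ccr8 by 0.91 ± 0.31 (edgeR adjusted p = 0.022). The scavenging receptors Ackr4 and Ackr2 fell by 1.54 ± 0.31 and 0.52 ± 0.14 (edgeR adjusted p = 0.000543 and 0.00459), and Ackr3, which removes Cxcl12, rose by 0.70 ± 0.18 (edgeR adjusted p = 0.0032). Of the inducing cytokines Il1a rose by 1.13 ± 0.27 (edgeR adjusted p = 0.00223) and Il33 by 1.25 ± 0.47 (edgeR adjusted p = 0.0357). Il36g, listed under its older name Il1f9, fell by 2.14 ± 0.40 (edgeR adjusted p = 0.000305). Ppbp, a platelet chemokine whose name falls outside the pattern, fell by 2.39 ± 0.33 (edgeR adjusted p = 2.14e-05) and Pf4 was not called.

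Single tumors differed from their neighbors in the same lung far more than the averages show. In 3-month animal 3, tumor 4 held 1015 CPM of Cxcl9 and tumor 5 held 3.55 CPM. The same pair held 175 and 1.44 CPM of Cxcl10, 319 and 16.0 CPM of Ccl5, 114 and 0.253 CPM of Ccl20, and 31.3 and 0.506 CPM of Xcl1, which T and NK cells make. In 7-month animal 4, tumor 8 held 601 CPM of Cxcl9 and tumor 7 held 1.04 CPM. There Cxcl10 lay at 132 and 4.41 CPM, Cxcl13 at 710 and 5.75 CPM, Ccl8 at 420 and 3.43 CPM, and Ccl20 at 234 and 1.90 CPM. Of the 33 chemokines, 10 were at their highest of all 33 tumors in 3-month tumor 4 and 5 in 7-month tumor 8. Leaving out the 2 tumors whose titles read ADC, a term the labels do not define, does not touch them, since both carry the title ADN.

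**Figure D4:**
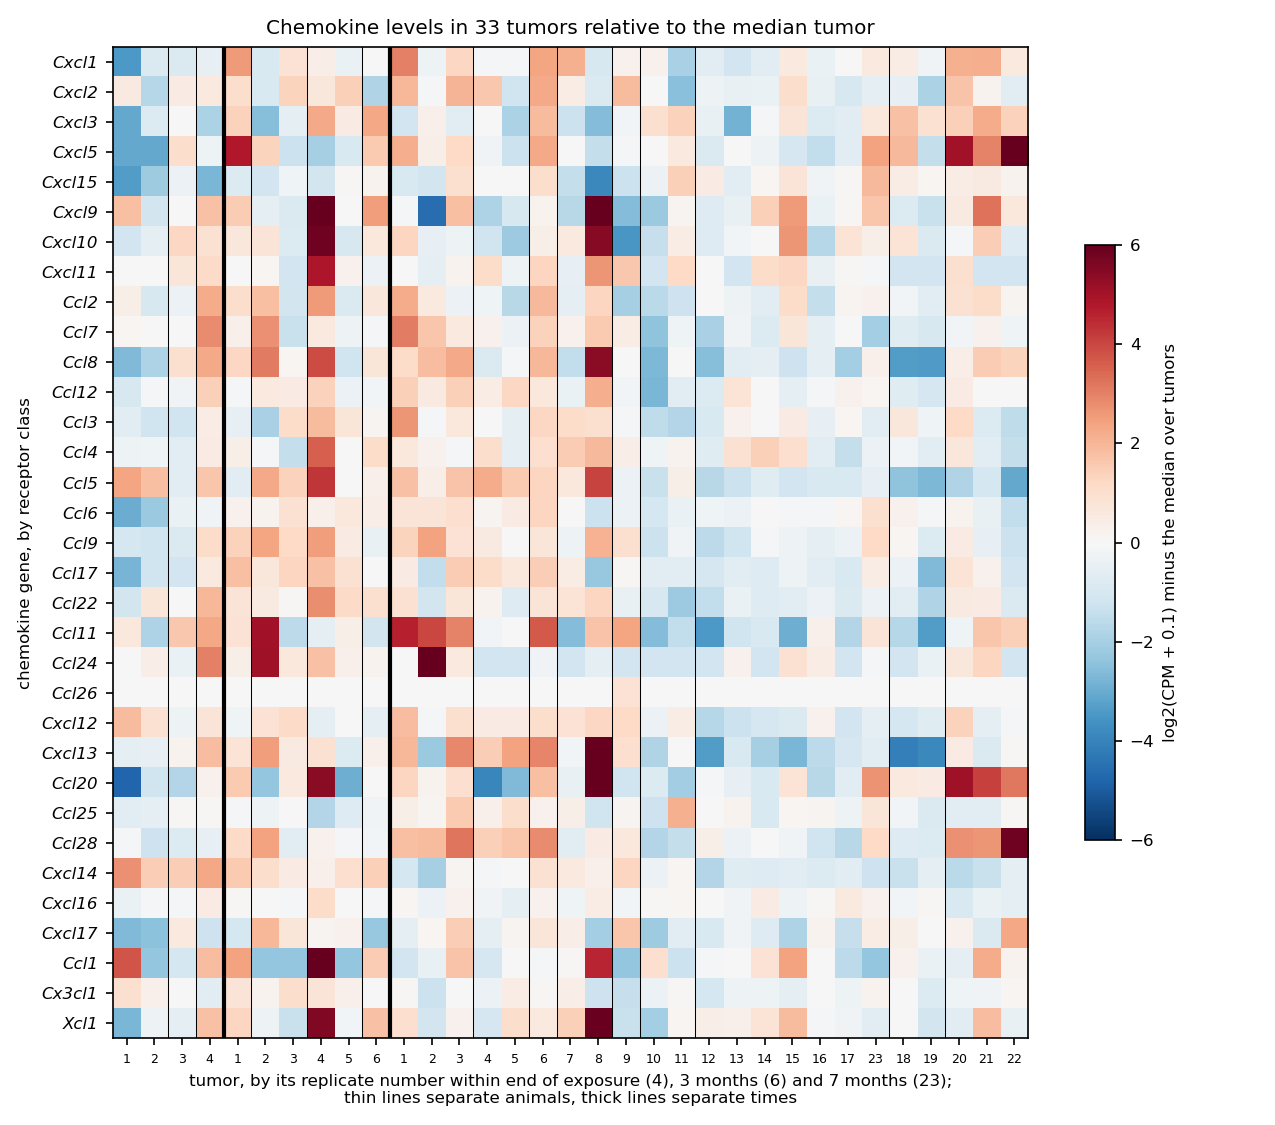
Log2(CPM + 0.1) of each chemokine (rows) in each of 33 tumors (columns, grouped by time and animal), minus its median over the tumors, from blue for lower to red for higher. Tumor 4 at 3 months and tumor 8 at 7 months are dark red for Cxcl9, Cxcl10, Ccl20, Ccl1 and Xcl1, and their neighbors from the same animals are not.

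Immune markers moved with those tumors. In 3-month tumor 4 the T and NK cell markers summed to 1240 CPM and the B and plasma cell markers to 1707 CPM, against 140 and 153 CPM in tumor 5. In 7-month tumor 8 the B and plasma cell markers came to 8773 CPM and the lymphoid follicle markers to 825 CPM, against 355 and 62.3 CPM in tumor 7. The alveolar type 2 markers came to 13096 CPM in tumor 8, the lowest of the 23 tumors at that time, and 59087 CPM in tumor 7. The part of lymphoid cells in these chemokine values was not tested. Other tumors stood out for other ligands. Tumor 22 at 7 months held 223 CPM of Cxcl5 and 31.1 CPM of Ccl28, with neutrophil markers at 1082 CPM against a median of 88.8 CPM over the 23 tumors. Tumor 2 at 7 months held 34.6 CPM of Ccl24, and tumors 1 and 3 of the same animal held 0.125 and 0.236 CPM. Over the same 23 tumors Ccl6 ran from 323 to 2160 CPM, Cxcl16 from 79.9 to 227 CPM and Cxcl15 from 473 CPM, in tumor 8, to 26882 CPM.

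Over the 39 normal lungs, the genes ranked most like a chemokine by Spearman's rho of log2 CPM were listed for those called in 2 or more comparisons. Ccl3 was most like Osm (rho = 0.858), Ccl6 like Atp6v0d2 (0.862), Cxcl15 like Nek6 (0.839), Cxcl16 like Tmem252 (0.884), Cxcl17 like Prr29 (0.888), Ccl17 like Il21r (0.805) and Ccl22 like Tlr12 (0.822), out of 14977 genes. Cxcl9 was most like Lag3 (0.659). These lungs share time groups and library depth, so the values are descriptions only.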

How the data were processed

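RNA of 39 normal lungs and 33 needle-dissected tumors was read with the Ion AmpliSeq mouse transcriptome panel, per the labels' protocols. The authors deposited 1 table of raw counts per gene (whole numbers, not normalized). The aligner and genome build were not given in the sources used here. The table has 74 columns, of which 72 matched a sample title and 2 did not and were not used. Dates in place of 27 gene names were restored. Which chip carried each library is not stated, so chip and group cannot be told apart.

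The normal lungs were fitted together with edgeR 4.0.16 under R 4.3.3 (filterByExpr, TMM, robust quasi-likelihood, 14907 genes, 35 residual degrees of freedom). Counts were then summed over each animal's tumors and fitted beside its own lung with the animal as a block (16 pairs, 15457 genes, 13 residual degrees of freedom). The pairs come from the animal named in the titles. The correlation of paired deviations ran from -0.0636 to 0.409 (median 0.226) and was over 0.1 in 11 of 16 pairs. P-values were adjusted by Benjamini-Hochberg over all genes tested at a threshold of 0.05. CPM used TMM scaling over 72 libraries.

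DESeq2 1.42.0, limma-voom 3.58.1, other scalings and filters, single tumor libraries and leaving out each library or animal were tried. Under these settings, values of single genes were kept for the chemokines only, not for receptors, cytokines or markers. A fit of the normal lungs with the F or M letter as a covariate was also tried. The total-count scaling and the removal of the lungs rich in Myh6 or with the fewest counts were added after the data were seen. The scripts' tests were tested on simulated data. Figures and tables used Python 3.11.15. The members, gene lists and tests were chosen with earlier results of these data known. Genes called in at least 1 comparison were described by their values, and other genes were named from the lists of receptors, cytokines and markers, up to 4 per list by p. One receptor of the list is not reported here.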

Additional observations from a re-analysis of the deposited data

Results flagged for a closer look

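A value was flagged where, on the scale of log2(CPM + 0.5), a group's highest or lowest animal lay far from the rest by Dixon's test. Of 176 gene and group combinations tested 16 were flagged, while chance flags about 1 in 20. The 7-month tumors of animal 4 stood apart for Cxcl9 (325 CPM, the next animal 16.0 CPM), Cxcl10 (73.6 CPM, next 5.34 CPM), Xcl1 (22.6 CPM, next 1.07 CPM) and Ccl1 (6.59 CPM, next 1.04 CPM). The 3-month tumors of animal 3 stood apart for Cxcl10 (77.4 CPM, next 4.73 CPM) and Cxcl11 (2.90 CPM, next 0.121 CPM), and were low for Ccl25 (1.24 CPM, next 2.42 CPM). In both animals the high Cxcl9 and Cxcl10 values came from 1 of the 2 tumors.

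Ccl24 reached 13.6 CPM in 7-month tumors of animal 1 (next 0.235 CPM) and 4.05 CPM in 3-month tumors of animal 2 (next 0.380 CPM). Cxcl5 reached 84.8 CPM in 7-month tumors of animal 10 (next 3.95 CPM), and Cxcl1 reached 25.8 CPM in the 3-month tumor of animal 1 (next 4.98 CPM). Cx3cl1 was low in 7-month tumors of animal 5, at 20.9 CPM (next 41.8 CPM). Among normal lungs, Ccl28 was high in baseline lung 1 at 3.02 CPM (next 1.3 CPM) and Ccl6 was low in end-of-exposure lung 6 at 21.5 CPM (next 54.4 CPM). Xcl1 had 0 counts in baseline lung 10 (next 0.324 CPM) and in 3-month lung 9 (next 0.652 CPM).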

How the results depend on the processing

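Of 720 counts of called chemokines recomputed under other settings, 651 lay within 1.5 times the value first given and 69 did not. Of the values for single called genes 1735 kept direction and call, 135 lost the call and 1 changed sign. The causes were not tested. The sign change was Ccl24 in 7-month tumors, 0.918 with no replicate block.

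In lungs at the end of exposure limma-voom called 2 higher, and 1 was lower with no filter or total counts and 0 without the Myh6 lungs. Against baseline 1 was higher at 3 months with DESeq2, no filter or only the groups compared, and 0 were lower at 7 months without the Myh6 lungs. Between 3 months and the end of exposure DESeq2 and limma-voom each called 1 higher, and 0 were lower with limma-voom or only the groups compared and 1 without the Myh6 lungs. In tumors at the end of exposure DESeq2 called 4 higher and 2 lower, and 1 was higher with no filter, no replicate block or each tumor on its own. At 3 months 5 were higher with total counts. At 7 months the lower count was 2 with DESeq2 or each tumor on its own, 3 with total counts and 0 with no filter, limma-voom or no replicate block. On average 1 was lower with no filter and 0 with no replicate block.

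Leaving out 1 library or animal gave 2 to 7 higher and 1 to 2 lower at the end of exposure, 8 to 12 higher and 1 lower at 7 months, and 0 to 1 higher and 0 to 2 lower between 3 months and the end of exposure. In tumors it gave 0 to 2 higher at the end of exposure, 5 to 9 higher at 3 months, 7 to 10 higher and 0 to 1 lower at 7 months, and 11 to 12 higher and 1 to 3 lower on average. Between 7 and 3 months total counts alone left 28.6% of all called genes higher, against 62.5% with TMM, of 7 and 8 genes.

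The groups at the end of exposure and 3 months hold few animals with tumors, and genes near 1 CPM rest on few counts. Amplicon reads carry no molecular identifiers, so no counting interval is given.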
